A study of Mus musculus with 9 samples.

Results

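This is an account of 10 genes of glucose uptake and glycolysis in the mouse cerebellum and in medulloblastoma, a cerebellar tumour. They are the glucose transporters Slc2a1 and Slc2a3, the hexokinases Hk1 and Hk2, the phosphofructokinase subunits Pfkl, Pfkm and Pfkp, the aldolase Aldoc, the enolase Eno2 and the lactate dehydrogenase subunit Ldhb. They were chosen by symbol, with earlier results of these data known. Each was read from the probe set annotated to that gene alone, or from the brightest such probe set where there were several. All 10 had such a probe set, of 19938 genes that did, and all 10 passed the filter on low values that left 16323 genes for testing. RNA came from mice at postnatal day 13, with 3 samples each of medulloblastoma labelled Ptch1KO, cerebellum labelled SufuKO and wildtype cerebellum. Ptch1 is the receptor that keeps Hedgehog signalling off, and Sufu restrains the Gli transcription factors further down the same pathway. The labels give no strain, no deleted exon and no promoter or cell type for any deletion, and leave unsaid whether a group's samples are different mice. The p-values therefore speak of the spread among these arrays, part of which may be technical. The platform was the Affymetrix Mouse Gene 1.0 ST array, with 1 array per sample, and levels are the deposited log2 values, without detection calls.

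Glycolysis splits glucose into pyruvate and yields ATP without oxygen. Glucose enters through facilitative transporters of the Slc2a family, hexokinase traps it as a phosphate, phosphofructokinase commits it to the pathway, aldolase cleaves the sugar, enolase acts late in the chain and lactate dehydrogenase interconverts pyruvate and lactate. Most steps have several isoenzymes that differ by tissue: Slc2a1 serves the blood-brain barrier and glia and Slc2a3 serves neurons, Hk1 is the hexokinase of adult brain while Hk2 is known from muscle, from dividing cells and from many tumours, Eno2 marks mature neurons, and Aldoc is made by astrocytes and by stripes of Purkinje cells. Hedgehog stimulation is known to raise Hk2 in cultured mouse granule neuron progenitors, the cells from which this tumour type arises.

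The promoters of 3 of the 10 genes are given below because these genes frame the pattern in the levels: Hk2 rose in the tumours, Eno2 fell furthest, and Pfkp fell with the other phosphofructokinase genes. Each runs from 250 bases before to 50 bases after the annotated start (RefSeq, GRCm38.p6), in the gene's own direction. The positions are chr6:82774405-82774704 on the minus strand for Hk2, chr6:124769624-124769923 on the minus strand for Eno2 and chr13:6648722-6649021 on the minus strand for Pfkp. Capitals mark ACGTG and GCGTG on either strand, the core letters of the element that hypoxia-inducible factors bind.
Hk2: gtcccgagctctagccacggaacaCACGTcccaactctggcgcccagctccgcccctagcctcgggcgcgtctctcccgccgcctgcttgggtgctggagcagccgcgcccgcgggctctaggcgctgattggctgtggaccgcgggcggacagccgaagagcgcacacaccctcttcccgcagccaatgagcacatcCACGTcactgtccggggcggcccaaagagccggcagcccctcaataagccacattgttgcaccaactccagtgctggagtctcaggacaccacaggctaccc
Eno2: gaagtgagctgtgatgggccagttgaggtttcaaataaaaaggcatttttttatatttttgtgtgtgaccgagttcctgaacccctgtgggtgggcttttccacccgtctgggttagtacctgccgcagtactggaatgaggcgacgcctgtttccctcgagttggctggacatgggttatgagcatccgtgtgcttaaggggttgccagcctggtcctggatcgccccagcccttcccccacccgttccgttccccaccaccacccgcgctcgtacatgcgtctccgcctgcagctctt
Pfkp: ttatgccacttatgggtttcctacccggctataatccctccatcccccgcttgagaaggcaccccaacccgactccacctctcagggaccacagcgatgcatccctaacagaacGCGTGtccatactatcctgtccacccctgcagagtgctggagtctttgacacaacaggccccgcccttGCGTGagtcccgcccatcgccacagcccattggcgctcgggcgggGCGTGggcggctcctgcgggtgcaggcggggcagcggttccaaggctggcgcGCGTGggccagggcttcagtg
Hk2 held ACGTG 2 times, Pfkp held GCGTG 4 times, and Eno2 held neither. Promoters were listed for 9 of the 10 genes, 14 promoters in all, since some genes have several starts. Of these, 11 held at least 1 of the 2 motifs, and 43.8% of all 32851 mouse promoters of this length did. The 14 are not independent, since Pfkm has several of them and some overlap and share a motif site. By gene, 8 of the 9 had a promoter with a motif, a count not made for all genes. Any CACGTG counts here as ACGTG too, and that longer motif was present in 1 of the 14 promoters, against 7.15% of all. A match to such short letters is a description of the sequence only.

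The 10 genes were lower in the tumours than in wildtype with few exceptions, and Hk2 moved the other way. In medulloblastoma against wildtype cerebellum, 8 of the 10 fell and 2 rose (limma, Benjamini-Hochberg adjusted p under 0.05), where 24.7% of all tested genes were called lower and 22.1% higher. Their median log2 difference was -0.85, and that of all tested genes was -0.01. In Sufu KO against wildtype cerebellum, 7 fell, 0 rose and 3 did not pass, where 12.4% of all genes were called lower and 13% higher, and the median of the 10 was -0.41 against -0.01 for all genes. In medulloblastoma against Sufu KO cerebellum, 7 were lower, 1 was higher and 2 did not pass, where 17.5% of all genes were called lower and 12.2% higher, with medians of -0.43 and -0.01. The comparisons share samples, so their values are given side by side and not as independent of each other. The 10 genes were chosen with earlier results of these data known, so counts and medians beside those of all genes are descriptions. Of the 2 calls upward in the tumours, the call for Hk1 rests on a probe set of doubtful identity, described with the hexokinases. A level here is a share of a tissue's RNA, so fewer cells of a type and less RNA per cell cannot be told apart for any gene here.

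**Figure D1:**
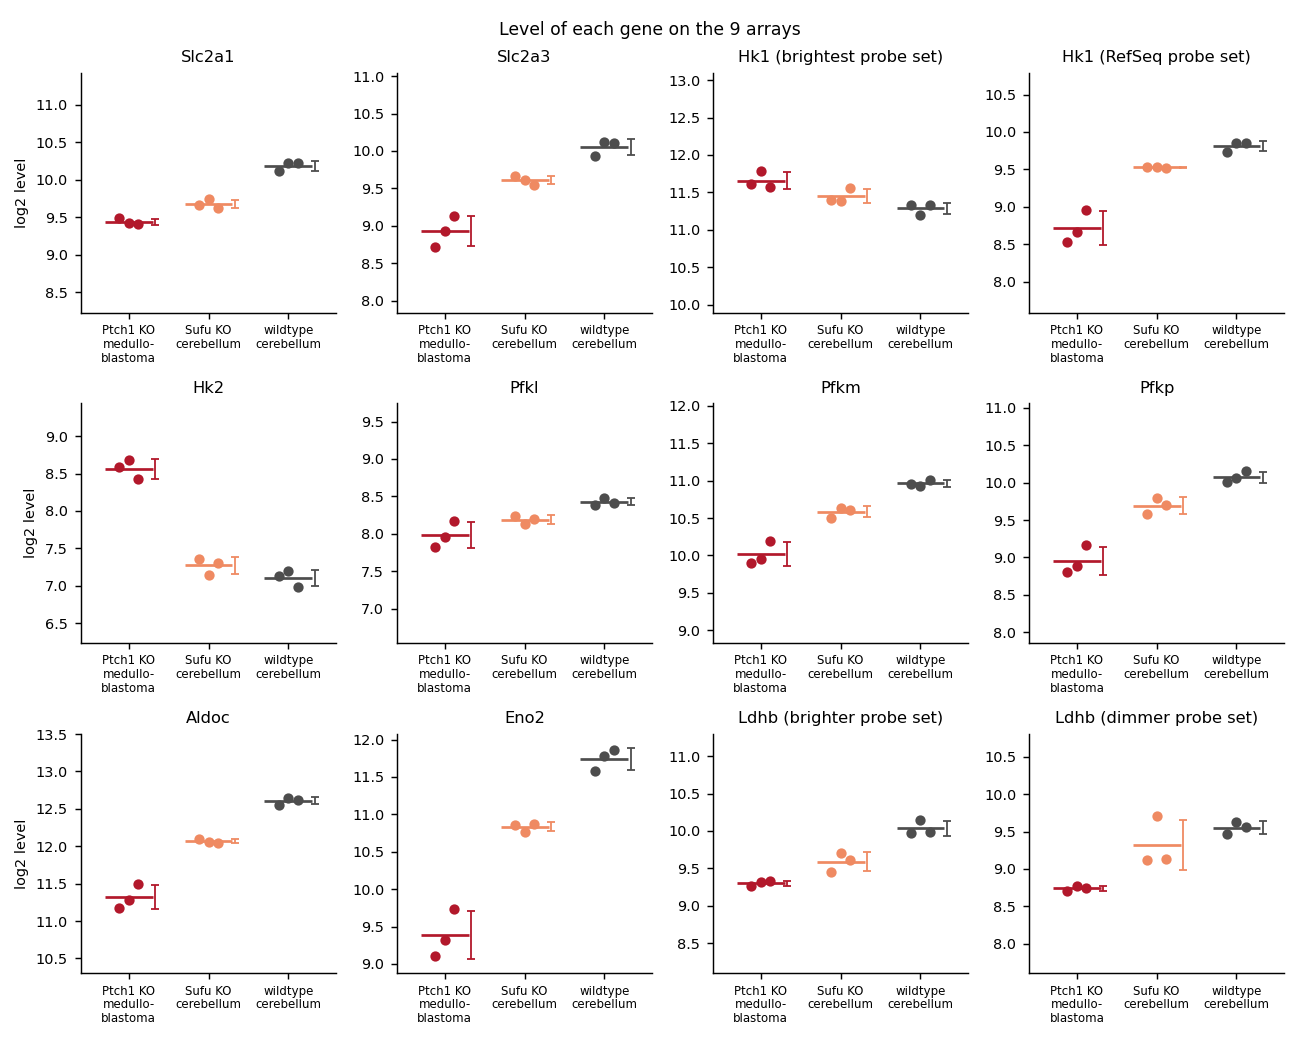
Log2 level of each gene on the 9 arrays, with Ptch1 KO medulloblastoma on the left, Sufu KO cerebellum in the middle and wildtype cerebellum on the right of every panel. Points are arrays, horizontal lines are means and bars are SD (n = 3), and every panel spans the same number of log2 units. Eno2 averaged 9.39 in the tumours and 10.83 in Sufu KO, against 11.74 in wildtype, Hk2 was high in the tumours alone, and the 2 probe sets of Hk1 moved in opposite directions.

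Both glucose transporters were lower in each mutant group than in wildtype. Slc2a1, the transporter of the blood-brain barrier, had log2 levels of 9.49, 9.42 and 9.41 in the tumours and 9.67, 9.74 and 9.62 in Sufu KO cerebellum, against 10.11, 10.23 and 10.23 in wildtype cerebellum. The 3 groups did not overlap. The fall from wildtype was 1.69-fold in the tumours (log2 difference -0.75 ± 0.07, SE, limma adjusted p = 1.43e-06) and 1.43-fold in Sufu KO (adjusted p = 0.000169). The tumours lay a further 1.18-fold below Sufu KO (adjusted p = 0.0153), a call that was lost without Sufu KO replicate 2 (adjusted p = 0.0768) or without tumour replicate 2 (adjusted p = 0.0553).

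Slc2a3, the high-affinity transporter of neurons, read 8.72, 8.94 and 9.13 in the tumours and 9.67, 9.62 and 9.55 in Sufu KO, against 9.93, 10.12 and 10.10 in wildtype. Every tumour array lay below every Sufu KO array, and those below every wildtype array. It was 2.18-fold lower than wildtype in the tumours (log2 difference -1.12 ± 0.10, SE, limma adjusted p = 1.38e-06) and 1.36-fold lower in Sufu KO (adjusted p = 0.00577). Between the mutant groups its log2 difference was -0.68 (adjusted p = 0.000259).

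Hk2, the inducible hexokinase that can bind mitochondria, was the gene of this set that rose in the tumours on a probe set of its own. Its log2 levels were 8.58, 8.68 and 8.42 in the tumours and 7.36, 7.15 and 7.31 in Sufu KO cerebellum, against 7.13, 7.20 and 6.99 in wildtype. The tumour arrays stood above all 6 others, and the Sufu KO arrays overlapped the wildtype. The rise over wildtype was 2.74-fold (log2 difference 1.46 ± 0.09, SE, limma adjusted p = 8.51e-08), and the rise over Sufu KO was 2.44-fold (1.29 ± 0.09, adjusted p = 2.64e-06). In Sufu KO against wildtype the log2 difference was 0.17 with a 95% confidence interval from -0.03 to 0.36 (adjusted p = 0.205), an interval that does not reach the size seen in the tumours. Among all 16323 tested genes Hk2 ranked 37 from the highest in the tumours against Sufu KO, and 273 from the highest against wildtype.

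Mki67, the proliferation marker, rose in both mutant groups. It read 10.78, 10.74 and 10.28 in the tumours and 9.59, 9.67 and 9.75 in Sufu KO, against 7.31, 6.82 and 6.98 in wildtype, which is 6.19-fold higher in Sufu KO than in wildtype (limma adjusted p = 7.4e-07). Mycn, a Myc family transcription factor and Hedgehog target, read 10.44, 10.23 and 10.11 in the tumours and 9.19, 9.08 and 9.26 in Sufu KO, against 7.69, 7.38 and 7.32 in wildtype. The 5 tested genes whose pattern over the 9 arrays was most like that of Hk2 were Myod1, Cybrd1, Fgfr4, Adgrv1 and Eya4, with Pearson correlations from 0.998 to 0.992, given as a description over arrays that fall into 3 groups. Their log2 differences in the tumours against wildtype lay between 0.84 (Cybrd1) and 1.66 (Myod1), and in Sufu KO between 0.05 and 0.20.

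Hk1, the constitutive hexokinase of brain, was measured by 2 probe sets annotated to it alone, and they moved in opposite directions. The brighter, which the rule selects, read 11.61, 11.78 and 11.57 in the tumours and 11.40, 11.39 and 11.56 in Sufu KO, against 11.33, 11.20 and 11.33 in wildtype. It was 1.29-fold higher in the tumours (log2 difference 0.37 ± 0.08, SE, limma adjusted p = 0.00197), and in Sufu KO its difference was 0.16 (adjusted p = 0.172). The other probe set read 8.53, 8.66 and 8.96 in the tumours and 9.53, 9.53 and 9.52 in Sufu KO, against 9.73, 9.85 and 9.85 in wildtype, with no overlap between groups. It was 2.13-fold lower in the tumours (-1.09 ± 0.10, adjusted p = 1.54e-06) and 1.75-fold lower in the tumours than in Sufu KO (adjusted p = 8.06e-05). In Sufu KO against wildtype its difference was -0.28, with adjusted p = 0.0499 when it stood for Hk1 among genes and 0.0512 in a fit of all 17877 single-gene probe sets.

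The annotation behind the 2 probe sets of Hk1 differs. The dimmer is listed with the RefSeq transcripts of Hk1, while the brighter is tied to Hk1 through 1 GenBank sequence and nothing else. That same sequence is listed for each of 16 further probe sets whose annotation names both Hk1 and Rpl17, a protein of the large ribosomal subunit. Across the 9 arrays the brighter probe set correlated with these 16 at Pearson r between 0.933 and 0.976, and the RefSeq probe set at r between -0.912 and -0.840, both as descriptions. In the tumours against wildtype all 16 were called higher, by 0.41 to 0.75 log2 units. In Sufu KO against wildtype 10 of the 16 were called higher, and 1 in the tumours against Sufu KO. The share of all 27206 probe sets called in that fit was not computed. The 16 list the same sequence, so they are not separate observations. With Hk1 read through its RefSeq transcripts, 9 of the 10 genes were lower and 1 higher in the tumours against wildtype. In Sufu KO 8 were lower and 0 higher, and between the mutant groups 8 were lower and 1 higher. Among all tested genes 24.7% were called lower and 22.1% higher in the tumours, and 12.4% and 13% in Sufu KO. Between the mutant groups these shares were 17.5% and 12.2%. This reading of Hk1 was chosen after its values were seen.

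**Figure D2:**
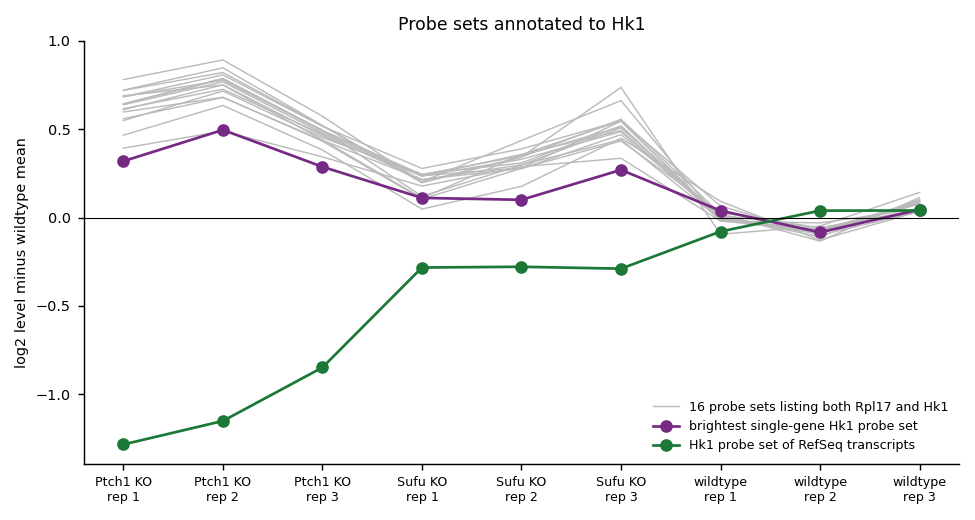
Log2 level relative to the wildtype mean (vertical axis) on each of the 9 arrays (horizontal axis) for the 18 probe sets whose annotation lists Hk1. The brightest single-gene probe set (purple) ran with the 16 probe sets that list both Rpl17 and Hk1 (grey), and the probe set of the RefSeq transcripts (green) ran below them, at 8.72 ± 0.22 in the tumours against 9.81 ± 0.07 in wildtype (log2, SD, n = 3).

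The 3 phosphofructokinase subunit genes were all lower in the tumours, Pfkp the most and Pfkl the least. Phosphofructokinase is a tetramer of liver (Pfkl), muscle (Pfkm) and platelet (Pfkp) type subunits, all of which brain contains. Pfkp read 8.81, 8.89 and 9.16 in the tumours and 9.58, 9.80 and 9.70 in Sufu KO, against 10.01, 10.06 and 10.15 in wildtype, with no overlap. It fell 2.17-fold in the tumours (log2 difference -1.12 ± 0.10, SE, limma adjusted p = 1.13e-06) and 1.30-fold in Sufu KO (adjusted p = 0.0113). Pfkm read 9.90, 9.95 and 10.20 in the tumours and 10.50, 10.64 and 10.61 in Sufu KO, against 10.95, 10.93 and 11.01 in wildtype. Its groups were also separate, and it fell 1.93-fold in the tumours (adjusted p = 1.49e-06) and 1.30-fold in Sufu KO (adjusted p = 0.00552). Below Sufu KO the tumours stood 1.67-fold lower for Pfkp (adjusted p = 0.000127) and 1.48-fold lower for Pfkm (adjusted p = 0.000296).

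Pfkl read 7.82, 7.96 and 8.17 in the tumours and 8.24, 8.13 and 8.20 in Sufu KO, against 8.39, 8.48 and 8.41 in wildtype. The tumours and Sufu KO overlapped, and both lay below wildtype on every array. It fell 1.36-fold in the tumours (log2 difference -0.44 ± 0.09, SE, limma adjusted p = 0.000906). In Sufu KO the log2 difference was -0.24 (95% confidence interval -0.42 to -0.05, adjusted p = 0.0633), and it passed the threshold without tumour replicate 1 (adjusted p = 0.0414) or replicate 3 (adjusted p = 0.0208), which enter the shared estimate of spread. Between the mutant groups it was -0.21 (adjusted p = 0.0953), and -0.30 without tumour replicate 3 (adjusted p = 0.00934).

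Aldoc, the aldolase of astrocytes and of zebrin-positive Purkinje cells, read 11.18, 11.28 and 11.50 in the tumours and 12.10, 12.05 and 12.05 in Sufu KO, against 12.56, 12.65 and 12.62 in wildtype. The groups lay clear of each other. It was 2.44-fold lower in the tumours (log2 difference -1.29 ± 0.08, SE, limma adjusted p = 1.07e-07), 1.46-fold lower in Sufu KO (adjusted p = 0.000471), and 1.68-fold lower in the tumours than in Sufu KO (adjusted p = 4.23e-05).

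Eno2, the neuronal enolase, showed the largest differences of the 10 genes in each of the 3 comparisons. Its log2 levels were 9.11, 9.33 and 9.73 in the tumours and 10.86, 10.77 and 10.88 in Sufu KO, against 11.58, 11.78 and 11.87 in wildtype. The 3 groups were separate, and the tumours were the most spread, with an SD of 0.32 against 0.06 in Sufu KO and 0.15 in wildtype. It was 5.10-fold lower in the tumours (log2 difference -2.35 ± 0.13, SE, limma adjusted p = 5.1e-08), which ranked 18 from the lowest of all tested genes. It was 1.88-fold lower in Sufu KO (-0.91 ± 0.13, adjusted p = 0.000394), rank 66, and 2.72-fold lower in the tumours than in Sufu KO (adjusted p = 1.59e-05), rank 29. The genes most like Eno2 over the 9 arrays were Arhgap26, Slc4a10, Plch2, Clstn3 and Cdipt, with Pearson r from 0.999 to 0.998, and among the 10 genes Aldoc came closest at 0.998, again as descriptions over 3 groups.

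Ldhb, the lactate dehydrogenase subunit of heart and neurons, read 9.26, 9.31 and 9.33 in the tumours and 9.45, 9.71 and 9.61 in Sufu KO, against 9.97, 10.14 and 9.99 in wildtype. No array of a group reached another group. It fell 1.66-fold in the tumours (log2 difference -0.73 ± 0.08, SE, limma adjusted p = 8.32e-06) and 1.36-fold in Sufu KO (adjusted p = 0.00155). Between the mutant groups it was 1.22-fold lower in the tumours (adjusted p = 0.0152), a call lost without Sufu KO replicate 2 (adjusted p = 0.082) or tumour replicate 1 (adjusted p = 0.0586). Without Sufu KO replicate 2, 5 of the 10 genes were called lower in the tumours than in Sufu KO, in place of 7. A second, dimmer probe set of Ldhb read 8.71, 8.78 and 8.74 in the tumours and 9.12, 9.71 and 9.13 in Sufu KO, against 9.46, 9.63 and 9.56 in wildtype. It gave 1.75-fold lower in the tumours (adjusted p = 0.000252), and in Sufu KO its difference was -0.23 (adjusted p = 0.239), with replicate 2 at the wildtype level. Between the mutant groups this probe set was 1.49-fold lower in the tumours (limma adjusted p = 0.0053), without overlap. Ldhb thus counts among the 7 genes lower in Sufu KO than in wildtype by its brighter probe set.

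**Figure D3:**
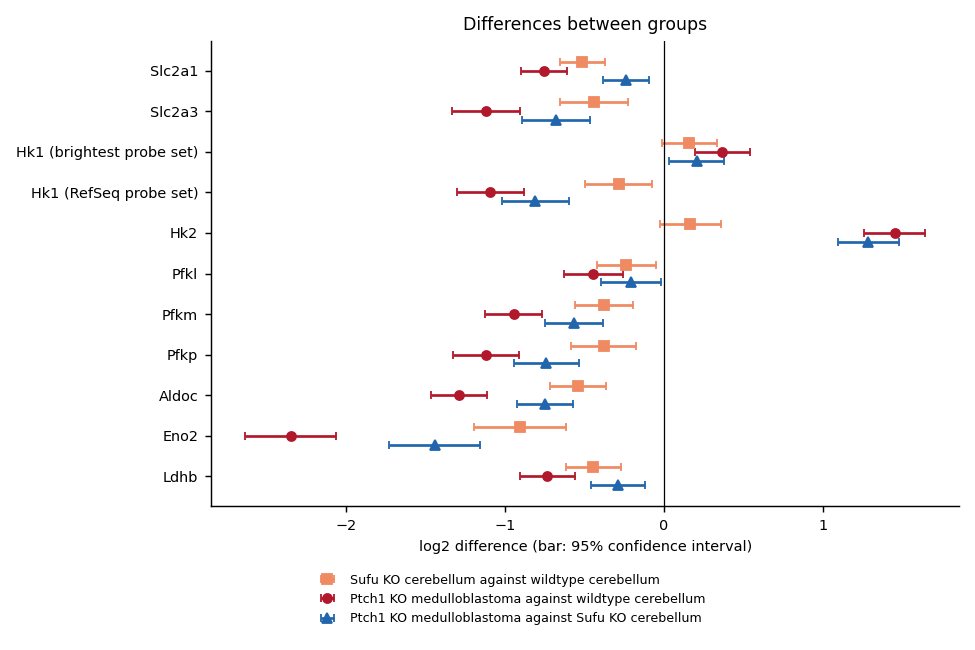
Log2 difference of each gene with its 95% confidence interval (horizontal axis) in Sufu KO against wildtype (squares), the tumours against wildtype (circles) and the tumours against Sufu KO (triangles), with both probe sets of Hk1. Hk2 lay right of 0 in the tumours, at 1.46 against wildtype, while Eno2 lay furthest left, at -2.35.

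For some isoenzyme pairs the difference within an array was separate between the groups, and for others the groups overlapped. Each difference between isoenzymes was taken within each array and compared between groups by an exact permutation test, which with 3 arrays against 3 cannot go below p = 0.1. Of 24 such comparisons none had an adjusted p below 0.16. Hk2 relative to the RefSeq probe set of Hk1 was 5.85-fold higher in the tumours than in wildtype (change of 2.55 log2 units, exact p = 0.1, adjusted p = 0.16), with no overlap, and 1.37-fold higher in Sufu KO than in wildtype. Against the brighter probe set of Hk1 the change in the tumours was 2.13-fold. Pfkp relative to Pfkl changed by -0.68 log2 units in the tumours against wildtype without overlap (exact p = 0.1), and Pfkp relative to Pfkm by -0.17 (exact p = 0.1). Slc2a3 relative to Slc2a1 was 1.29-fold lower in the tumours (exact p = 0.1), and in Sufu KO its change of 0.07 log2 units overlapped the wildtype (exact p = 0.2).

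Ldhb by its brighter probe set, relative to Ldha, the subunit that favours lactate production, was 1.53-fold lower in the tumours than in wildtype. It was 1.39-fold lower in Sufu KO, both without overlap (exact p = 0.1). The ratio was not computed for the dimmer Ldhb probe set. On that probe set Ldhb in Sufu KO replicate 2 read 9.71, above every wildtype array, so the separation in Sufu KO rests on the brighter one. Ldha itself read 10.96, 10.97 and 11.04 in the tumours and 11.18, 11.09 and 11.15 in Sufu KO, against 11.01, 11.17 and 11.16 in wildtype, with a log2 difference of -0.12 ± 0.07 (SE, limma adjusted p = 0.172) in the tumours and 0.03 ± 0.07 (adjusted p = 0.83) in Sufu KO. Aldoc relative to Aldoa, the widespread aldolase, changed by -0.04 log2 units in the tumours (exact p = 0.2) and overlapped between groups. Aldoa fell as far as Aldoc did, by 1.25 ± 0.09 on the log2 scale in the tumours (SE, limma adjusted p = 2.9e-07).

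**Figure D4:**
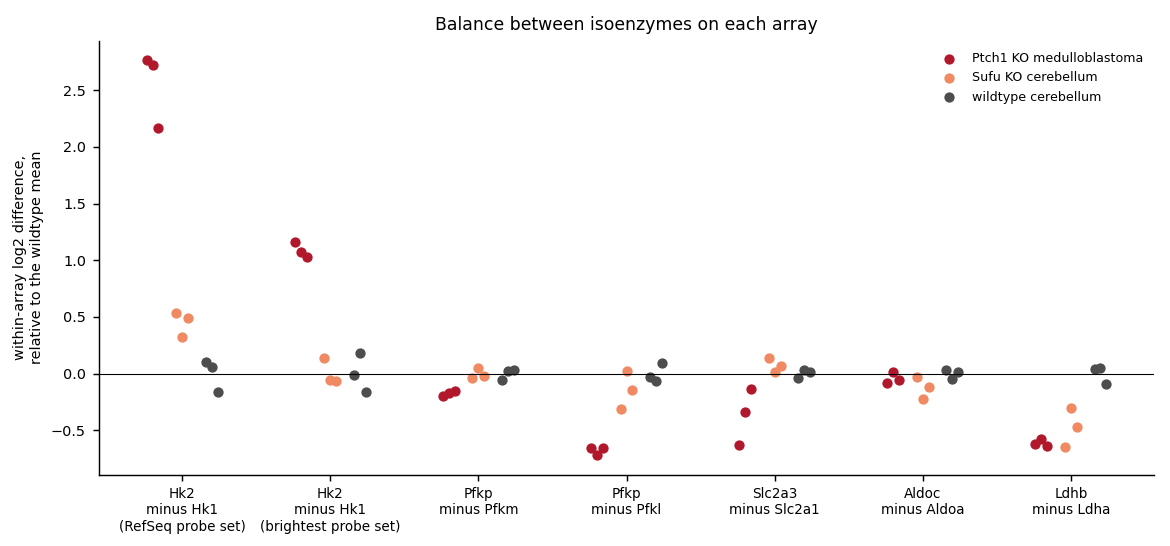
Within-array log2 difference between isoenzymes relative to its wildtype mean (vertical axis) for 7 pairs, with the tumours left, Sufu KO in the middle and wildtype right within each pair; points are arrays. Hk2 minus the RefSeq probe set of Hk1 stood 2.55 log2 units above wildtype in the tumours, and the groups overlapped for Aldoc minus Aldoa.

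The other enzymes of glycolysis fell in part. Of 18 listed, 13 had a single-gene probe set and were tested. In the tumours against wildtype 7 were called lower, 1 higher and 5 neither, where 24.7% of all genes were called lower and 22.1% higher. Their median log2 difference was -0.19. After Aldoa, the furthest falls were those of Tpi1, which interconverts the triose phosphates (1.81-fold, limma adjusted p = 1.93e-06), Pgam1, a phosphoglycerate mutase (1.69-fold, adjusted p = 1.76e-06), and Hkdc1, a hexokinase-related protein (1.67-fold, adjusted p = 4.1e-05). Pgk1, the phosphoglycerate kinase that makes ATP, was 1.48-fold lower in the tumours (adjusted p = 5.98e-05) and 1.42-fold lower in Sufu KO (adjusted p = 0.000594). The gene that rose was Adpgk, an ADP-dependent glucokinase (1.18-fold, adjusted p = 0.00782). In Sufu KO 5 of the 13 fell, against 12.4% of all genes, and 0 rose; the 5 were Pgk1, Pgam1, Aldoa, Hkdc1 and Tpi1. Between the mutant groups 6 were lower in the tumours, against 17.5% of all genes, and 1, Adpgk, was higher. Pkm counts among the 7 and the 6 by its brighter probe set. Its other probe set read -0.06 in the tumours against wildtype (limma adjusted p = 0.666) and 0.01 against Sufu KO (adjusted p = 0.962). The further probe sets of Pgk1 and Pgam1 did not change their calls. Gapdh and Eno1 had no single-gene probe set and were not analysed here.

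Among the enzymes that make or break the bisphosphate activator of phosphofructokinase, 4 were tested. Pfkfb2 was 1.45-fold lower in the tumours (limma adjusted p = 5.98e-05), with a log2 difference of -0.14 in Sufu KO (adjusted p = 0.212). Pfkfb3, the isoform known for its high kinase activity, was 1.18-fold higher in Sufu KO (adjusted p = 0.0303) and 1.27-fold lower in the tumours than in Sufu KO (adjusted p = 0.00309). These are 1 of 4 lower in the tumours and 1 of 4 higher in Sufu KO, near the 24.7% and 13% of all genes. Pfkfb4 and Tigar did not pass in any of the 3 comparisons. Of 9 further hexose transporters, 3 fell and 1 rose in the tumours, near the 24.7% and 22.1% of all genes called lower and higher: Slc2a6 fell 1.83-fold (adjusted p = 1.45e-05), Slc2a8 1.22-fold and the inositol transporter Slc2a13 1.22-fold. The gene that rose was Slc2a4, the insulin-responsive transporter (1.19-fold, adjusted p = 0.0322), and it was 1.23-fold lower in Sufu KO (adjusted p = 0.0236).

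Genes that handle lactate and pyruvate were lower as well. Of 13 tested, 10 fell and 0 rose in the tumours against wildtype, and 7 fell and 0 rose in Sufu KO. Among all tested genes 24.7% were called lower in the tumours and 12.4% in Sufu KO. Pdk2, a kinase that switches off pyruvate dehydrogenase, was 2.67-fold lower in the tumours (log2 difference -1.42 ± 0.09, SE, limma adjusted p = 1.06e-07) and 1.47-fold lower in Sufu KO (adjusted p = 0.000709). Slc16a7, the lactate carrier of neurons, was 1.78-fold lower in the tumours (adjusted p = 1.32e-05), and Bsg, the chaperone of lactate carriers, had a log2 difference of -0.58 (adjusted p = 5.31e-06). Slc16a1, the lactate carrier of glia and vessels, was 1.38-fold lower in the tumours (adjusted p = 0.000153) and 1.42-fold lower in Sufu KO (adjusted p = 0.000307), and between the mutant groups it differed by 0.04 ± 0.07 (adjusted p = 0.731).

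The pentose phosphate branch, which draws on glucose phosphate to make ribose and NADPH, had most of its tested enzymes called higher in the tumours. Against wildtype, the tumours had 5 of 6 tested enzymes called higher and 0 lower, where 22.1% and 24.7% of all genes were, with a median log2 difference of 0.37. Tkt, a transketolase, was 1.58-fold higher (limma adjusted p = 7.12e-05), Rpia, which makes ribose phosphate, 1.40-fold higher (adjusted p = 0.000444), and Pgd, a dehydrogenase that yields NADPH, 1.38-fold higher (adjusted p = 6.11e-05). Taldo1 had a log2 difference of -0.01 (adjusted p = 0.951). In Sufu KO, Tkt rose 1.34-fold (adjusted p = 0.00493) and the other 5 did not pass, a count near the 13% of all genes called higher. Pgd, Rpe and Rpia were higher in the tumours than in Sufu KO, by 1.22-fold, 1.17-fold and 1.19-fold.

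Hypoxia-inducible factors are textbook inducers of many of these genes, so their transcripts and targets outside glycolysis were read too. Of 12 tested, 6 fell and 2 rose in the tumours, where 24.7% of all genes were called lower and 22.1% higher. Car9, a carbonic anhydrase, fell 3.04-fold (limma adjusted p = 1.15e-07), Ndrg1 2.28-fold (adjusted p = 1.04e-06), Hif1a itself 1.38-fold (adjusted p = 5.38e-05) and Vegfa, the vascular growth factor, 1.51-fold (adjusted p = 0.000662). Those that rose were Egln3, a prolyl hydroxylase (1.18-fold, adjusted p = 0.0149), and Ddit4 (1.16-fold, adjusted p = 0.0334). Egln3 averaged 6.40 in the tumours and 6.16 in wildtype, and Car9 5.83 in the tumours. These levels lie below the array medians of 6.72 to 6.79, where a gene may not be told from background. In Sufu KO 4 of the 12 fell and 0 rose, where 12.4% and 13% of all genes did. Car9 was 1.96-fold lower (adjusted p = 3.95e-05) and Epas1, the hypoxia factor of vessels and glia, 1.38-fold lower (adjusted p = 0.000316). Bnip3 is not among the 4 by its brighter probe set (log2 difference -0.14, limma adjusted p = 0.337). Its other probe set was called lower in Sufu KO (-0.37, adjusted p = 0.00908). In the tumours against wildtype both were called lower.

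**Figure D5:**
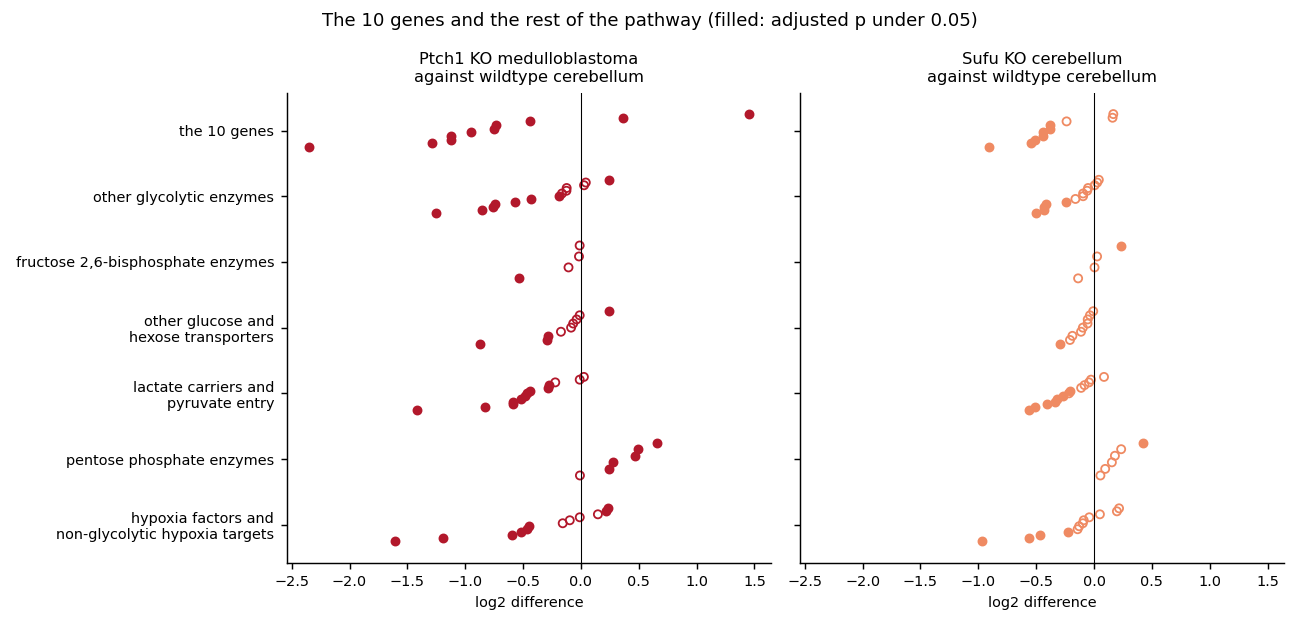
Log2 difference (horizontal axis) of the 10 genes and of 6 lists of related genes in the tumours against wildtype (left) and Sufu KO against wildtype (right); each point is a gene, filled where adjusted p was under 0.05. Pentose phosphate enzymes lay at or right of 0, with 5 of 6 called higher in the tumours, and most lactate and pyruvate genes lay left of it.

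Marker lists of several cell types also differed between the groups. Against 24.7% of all genes called lower in the tumours and 12.4% in Sufu KO, mature granule neuron markers fell for 8 of 8 tested in the tumours and 7 of 8 in Sufu KO; their mean log2 level ran from 8.97 to 9.64 over the tumour arrays and from 10.44 to 10.49 over Sufu KO, against 11.13 to 11.34 over wildtype. Purkinje cell markers fell for 6 of 6 in both, with mean levels from 8.68 to 8.82 in the tumours and 9.96 to 10.04 in Sufu KO, against 10.53 to 10.63 in wildtype. Oligodendrocyte markers fell for 6 of 6 in both, at 8.35 to 8.63 in the tumours and 9.56 to 9.96 in Sufu KO, against 10.31 to 10.58 in wildtype. Progenitor and dividing cell markers rose for 6 of 6 in both, where 22.1% and 13% of all genes did, at 10.06 to 10.51 in the tumours and 9.28 to 9.48 in Sufu KO, against 7.34 to 7.65 in wildtype. The part of these shifts in the levels of the 10 genes was not tested.

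Markers of glia and vessels are given beside Aldoc and Slc2a1. Bergmann glia and astrocyte markers fell for 7 of 10 in the tumours, with 1 higher, and for 7 of 10 in Sufu KO. Among all tested genes 24.7% were called lower and 22.1% higher in the tumours, and 12.4% lower in Sufu KO. The mean level of these markers ran from 9.38 to 9.67 in the tumours and 9.59 to 9.65 in Sufu KO, against 10.16 to 10.22 in wildtype. Between the mutant groups 2 of 10 were lower in the tumours and 1 was higher, close to the 17.5% and 12.2% of all tested genes. Their median log2 difference was -0.13, beside -0.75 for Aldoc. Purkinje cell markers, the other cells named for Aldoc, had a median of -1.23 in that comparison, with 6 of 6 lower. Endothelial markers fell for 7 of 8 in the tumours and 4 of 8 in Sufu KO, where 24.7% and 12.4% of all genes did, at 7.21 to 7.27 in the tumours and 7.33 to 7.46 in Sufu KO, against 7.49 to 7.68 in wildtype. Their median log2 differences were -0.34 and -0.24, beside -0.75 and -0.51 for Slc2a1. Those of the Bergmann glia and astrocyte markers were -0.50 in the tumours and -0.61 in Sufu KO. Of 6 microglia markers, 4 were called higher in the tumours, against 22.1% of all genes, and 1, C1qb, in Sufu KO, near the 13% of all genes; their mean level was 7.42 to 7.59 in the tumours and 7.03 to 7.26 in Sufu KO, against 6.87 to 6.96 in wildtype. Of the red blood cell markers 2 were tested, Alas2 and Slc4a1, and Alas2 fell in the tumours (limma adjusted p = 0.0311). Log2 array values have no zero, so no marker can be called absent, and the part of these cell types was not tested either.

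The tumour samples also differed among themselves in the levels of the 10 genes. For 9 of the 10 genes, tumour replicate 3 was the tumour array nearest to the wildtype mean, Slc2a1 being the exception. The margin was small for Ldhb, at -0.70 against -0.72 in replicate 2, and Hk1 here is the probe set of doubtful identity. The share of all tested genes for which replicate 3 was nearest was not computed. Relative to the wildtype mean, Eno2 stood at -2.63, -2.42 and -2.01 log2 units in tumour replicates 1, 2 and 3, and Hk2 at 1.48, 1.57 and 1.32. Replicate 3 also had the lowest Mki67 of the tumours, at 10.28, and the highest mean level of mature granule neuron markers, at 9.64. Bergmann glia and astrocyte markers and oligodendrocyte markers were highest there too, at 9.67 and 8.63. Purkinje cell and endothelial markers were highest in replicate 2 instead, at 8.82 and 7.27, against 8.79 and 7.23 in replicate 3. Without tumour replicate 3, 8 genes were called lower and 2 higher in the tumours against wildtype, and 8 lower and 0 higher in Sufu KO. Xist exceeded the Y-linked genes on all 3 wildtype arrays and on 1 array of each mutant group, so sex differed between the groups as well.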

How the data were processed

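Total RNA of 9 samples was measured on 9 Affymetrix Mouse Gene 1.0 ST arrays, 3 per group, and groups and replicate numbers were read from the sample titles. The authors deposited log2 expression values for 35556 probe sets, and the scale was read from the values, which run from 3.04 to 13.8. For background correction, normalization and probe summary, the method was not given in the sources used here. Array medians lay between 6.72 and 6.79, and the number of arrays limits the precision. Probe sets were named with the platform annotation, with symbols checked by gene identifier against RefSeq (GRCm38.p6): 21789 had 1 symbol, 1621 several and 12146 none listed, and 21698 matched. The brightest single-gene probe set stood for a gene. Genes above the 25th percentile of their array on at least 3 arrays were tested. Group means were estimated for all genes from all 9 arrays with limma's lmFit (limma 3.58.1) in R 4.3.3 and moderated by empirical Bayes, with Benjamini-Hochberg adjustment over all 16323 genes at a threshold of 0.05, and the fit was tested on simulated data. Folds are back-transformed log2 differences, and SE is moderated. The 10 genes and the lists were chosen with earlier results of these data known. The rule named the 10 genes and, by smallest p, up to 5 called genes per pathway list and comparison. Up to 3 per marker list were named too, with the isoenzyme partners, Mki67, Mycn and the 5 genes most correlated with Hk2 and Eno2. Other genes are named where a count is 5 or fewer, and Pkm and Bnip3 for their second probe sets, after their values were seen. The alternatives were 2 filters, quantile normalization, a trended prior, 2-group fits, a replicate block, a sex covariate, averaged probe sets and leaving out each array; Hk1 by its RefSeq transcripts was added after seeing the data. Eno2 could not be set against Eno1, which had no single-gene probe set.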

Additional observations from a re-analysis of the deposited data

How the results depend on the processing

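Of the log2 differences of the 10 genes, 519 of their values under the alternatives kept direction and side of the threshold, 4 lost the call, 11 gained it and 6 changed sign; all 6 were Hk1. With its 2 probe sets averaged, Hk1 had differences of -0.062 (Sufu KO against wildtype), -0.36 (tumours against wildtype) and -0.30 between the mutant groups, and by its RefSeq transcripts -0.28, -1.09 and -0.81. The number of the 10 genes higher in Sufu KO than in wildtype became 1 with quantile normalization or a sex covariate. The number higher in the tumours than in wildtype became 1 with probe sets averaged or with the RefSeq probe set of Hk1. The number higher in the tumours than in Sufu KO became 2 with an intensity-trended prior or a sex covariate, and 1 to 2 when single arrays were left out; the gained gene was Hk1 each time. Same-numbered samples did not pair: deviations from group means correlated at -0.31 to 0.35, over 0.1 in 2 of 9 pairs, and with the replicate block the calls were 7 lower and 0 higher in Sufu KO, 8 and 2 in the tumours against wildtype, and 7 and 1 between the mutant groups. Over all alternatives Hk2 in the tumours against wildtype ran from 1.39 to 1.53 log2 units and Eno2 from -2.52 to -2.21. Within arrays, Hk2 minus Hk1 (brightest) in Sufu KO against wildtype was 0.01 and read -0.032 with quantile normalization and -0.076 to 0.097 with arrays left out; Pfkp minus Pfkm was near 0 too, at -0.029 to 0.016. The causes were not tested. Dim genes cannot be told from background here, and their folds may be understated.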
